A study of Danio rerio with 2 samples.

Results

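The circadian clock genes of the zebrafish (Danio rerio) were examined in RNA sequencing libraries of dissected hearts at 96 hours post fertilisation. The set was chosen by name, with earlier results of these data known, and held 40 of the 32057 genes in the count table. Of these, 36 were found by symbol. The other 4 are cryptochromes that the table lists under newer symbols, and they were found through RefSeq synonyms with the same gene identifier: cry1aa is listed as cry1a, cry1ab as cry1b, cry1ba as cry3a and cry1bb as cry3b. By role, 10 genes were placed in the positive limb, 18 in the negative limb, 9 among the outputs and 3 with the casein kinases that act on the clock.

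The genotype label of one library is foxc1anju18, an allele of the forkhead transcription factor gene foxc1a, and that of the second is TU, the wild type. They are called the nju18 and the TU library. The sources used here do not give whether the mutant fish were homozygous, how many hearts were pooled, or the hour of day and light schedule at collection, so the phase of the daily cycle in either library is not known. Both libraries share the tissue label (heart), the age and the extraction protocol, in which hearts were flash frozen before RNA was isolated. With 1 library per genotype there is no spread between replicates, and no difference below was tested between genotypes here.

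In vertebrates the clock is a loop of transcription. CLOCK or NPAS2 proteins pair with BMAL proteins (the arntl genes) and switch on the per and cry genes, whose products then inhibit that pair. A second loop sets the level of BMAL transcripts through ROR activators and NR1D (REV-ERB) repressors, and the PAR bZIP factors DBP, TEF and HLF, with their antagonist NFIL3, carry the rhythm to other genes. Zebrafish peripheral organs, the heart included, hold clocks of their own that respond directly to light.

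The libraries held 17467109 reads counted to genes (nju18) and 20049851 (TU). foxc1a itself had 798 and 629 reads, a ratio of 1.78. The labels do not say what the allele does to the transcript, so this level does not check them. Levels are CPM, reads scaled to a common library size, after TMM scaling, a correction for differences in composition between libraries. Intervals in parentheses are 95% exact counting intervals, which compare these libraries and cover counting error only. Scaling by total counts instead moves the log2 of every ratio by -0.29 before any CPM is added. The median over all measured genes, on the scale of CPM + 1 used below, was 0.04 with TMM and -0.26 with total counts. Among cell type markers, 9 cardiomyocyte genes were all measured, and their sum was 29497 CPM in the nju18 library and 8247 CPM in the other, with 6 at least 2-fold higher. Skeletal muscle markers also stood higher there (10 of 12 measured, summed level 14740 against 2961 CPM), as did liver markers (4 of 8, 420.1 against 188 CPM). Photoreceptor and pineal markers stood lower (16 of 17 measured, 473 against 3761 CPM), as did neuronal (10 of 13, 229 against 659.7 CPM) and red cell markers (4 of 5, 821 against 2468 CPM). Of all these markers, mylpfa alone had 0 reads in a library (TU, against 4 reads in nju18). Photoreceptor, skeletal muscle and liver markers belong to tissues other than the heart. The values below therefore describe the dissected samples, not heart cells alone. In bulk tissue, fewer cells of a type and less RNA per cell cannot be told apart, and the part of all these markers in the values below was not tested.

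Most clock genes were lower in the nju18 library, and the lowest ratios were those of per1a and of the PAR bZIP genes hlfa, tefb and dbpa. In contrast, arntl1a and rorcb of the positive limb were higher. Of the 40 genes, 33 reached 5 CPM in at least 1 library, and these are called measured. On the log2 scale of CPM + 1, 7 of the 33 were at least 2-fold lower and 1 at least 2-fold higher, where 11.1% and 9.61% of 12259 measured genes of any kind were. Values below 0 on that scale were found for 26 of the 33, and for 47.6% of all measured genes. The median log2 ratio of the 33 genes was -0.43, with a range from -2.54 to 1.25. Of the 7 lower genes, 3 reached 5 CPM only in the TU library (per1a, arntl1b and hlfb), and such a gene has to appear low in the other. Among the 29 genes at 5 CPM in both libraries, 4 were at least 2-fold lower, where 5.98% of all genes at that level were. Of the 8 genes past the 2-fold rule, hlfa, tefb, cry5 and rorcb overlap another gene in RefSeq, so reads of the neighbour may be included.

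**Figure D1:**
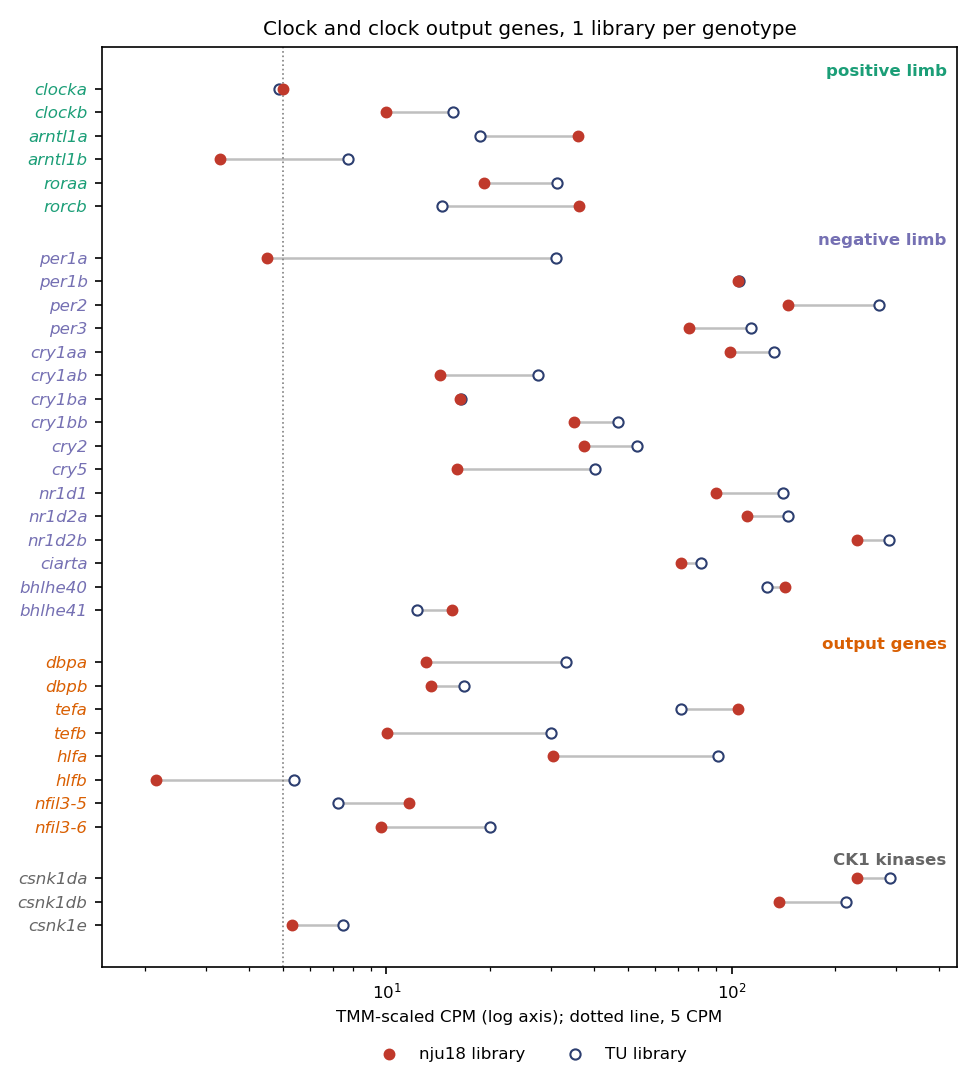
Level of each of the 33 measured clock genes (TMM-scaled CPM, log axis) in the nju18 (filled) and TU (open) library, grouped by role; the dotted line marks 5 CPM. Most filled points lie left of the open ones, with the widest gap at per1a (4.50 against 31.0 CPM). arntl1a, rorcb, tefa and nfil3-5 lie the other way, as do bhlhe41, bhlhe40 and clocka by smaller ratios.

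The positive limb went both ways. arntl1a (ENSDARG00000006791), a BMAL gene and so one partner of the activating pair, had 566 reads (35.8 CPM) in the nju18 library and 413 reads (18.6 CPM) in the other. That is a ratio of 1.92 (1.69 to 2.19), higher in the nju18 library and just short of the 2-fold rule on the log2 scale (0.91). Its duplicate arntl1b had 52 and 171 reads, or 3.29 and 7.71 CPM, and was 2.34 times lower (1.71 to 3.26). The copies of this gene therefore stood in opposite directions. clockb, which encodes the other partner, had 157 and 346 reads (9.94 and 15.6 CPM), a ratio of 0.637 (0.524 to 0.772). Its duplicate clocka had 79 and 108 reads, 5.0 and 4.87 CPM, a ratio of 1.03 whose interval (0.759 to 1.39) holds 1. The CLOCK paralog npas2 had 0 and 1 read, and arntl2 was listed at 0 reads in both libraries, as was the casein kinase gene csnk1a1, which most cells use. By counting error alone, a count of 0 allows up to 3 reads, which is 0.190 CPM in the nju18 and 0.135 CPM in the TU library. Since csnk1a1 was also at 0, a count of 0 is not read here as absence of the transcript.

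ROR genes, which activate arntl transcription, were also split. rorcb (ENSDARG00000017780) had 569 and 322 reads, 36.0 against 14.5 CPM. It was the 1 clock gene at least 2-fold higher in the nju18 library, with a ratio of 2.48 (2.16 to 2.85). With total-count scaling its ratio was 2.03, and it no longer passed the rule on the log2 scale. roraa had 303 and 692 reads, 19.2 against 31.2 CPM, and stood lower, with a ratio of 0.615 (0.535 to 0.705). rorab stayed under 5 CPM in both libraries (16 and 56 reads), and rorca was listed at 0 reads in both. Over the 6 measured genes of the positive limb, 1 was at least 2-fold lower and 1 higher, and the median log2 ratio was -0.28. With 6 genes, these counts are near the shares over all measured genes (11.1% and 9.61%). Together the 10 genes made up 110 CPM in the nju18 and 95.1 CPM in the other library. This small excess rests on scaling, since the ratio of 1.16 (1.09 to 1.24) is smaller than the shift between TMM and total-count scaling.

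All 4 period genes had ratios at or under 1, but with TMM scaling they spanned from no difference to nearly 7-fold. per1a (ENSDARG00000056885) had 71 reads in the nju18 library and 688 in the other, or 4.50 and 31.0 CPM, 6.90 times lower (5.40 to 8.94). per1a reached 5 CPM in the TU library alone, and such a gene has to appear low in the other. Its duplicate per1b, by contrast, had 1652 and 2323 reads and stood at 105 CPM in both libraries, a ratio of 0.999 (0.937 to 1.06). With total-count scaling the per1b ratio was 0.816, so its equal levels rest on the scaling. per2, the period gene that light induces in zebrafish cells, had 2308 and 5932 reads, 146 against 268 CPM, and was 1.83 times lower (1.74 to 1.92). per3 had 1190 and 2531 reads, 75.4 and 114 CPM, and was 1.51 times lower (1.41 to 1.62). The summed level of the 4 genes was 331 CPM in the nju18 library and 517 CPM in the TU one. That sum gives a ratio of 0.639 (0.618 to 0.660), in which per2 carries most of the difference.

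Cryptochrome genes followed the period genes in direction. With 6 genes, the 1 that was at least 2-fold lower is near the share over all measured genes (11.1%). That gene was cry5 (ENSDARG00000019498), whose product in zebrafish is a photolyase that repairs (6-4) lesions of ultraviolet light rather than a clock repressor. It had 252 and 894 reads, 16.0 against 40.3 CPM, and was 2.53 times lower (2.19 to 2.92). cry1ab had 226 and 608 reads, 14.3 and 27.4 CPM, and was 1.92 times lower (1.64 to 2.24). cry1aa, which light induces in zebrafish cells, had 1564 and 2948 reads, 99.0 and 133 CPM, 1.34 times lower (1.26 to 1.43). The remaining cryptochromes lay closer together in the libraries. cry2 had 37.4 and 53.2 CPM (ratio 0.703) and cry1bb 34.9 and 46.9 CPM (ratio 0.745). cry1ba stood at 16.3 and 16.4 CPM, a ratio of 0.995 with an interval (0.845 to 1.17) that holds 1. With total-count scaling the cry1ba ratio was 0.814. Summed cryptochrome levels were 218 and 317 CPM.

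The NR1D genes, whose products repress arntl, were lower by smaller factors. nr1d1 (ENSDARG00000033160) had 1421 and 3117 reads, 89.98 against 141 CPM, and was 1.56 times lower (1.47 to 1.66). nr1d2a had 1747 and 3229 reads, 111 and 146 CPM, a ratio of 0.760 (0.716 to 0.805). nr1d2b, the NR1D gene with the highest level in both libraries, had 3649 and 6347 reads, 231 and 286 CPM, a ratio of 0.807 (0.775 to 0.841). None of these 3 reached 2-fold. nr1d4a (17 and 41 reads) and nr1d4b (50 reads in each library) stayed under 5 CPM, and the counting interval of each ratio held 1.

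The 3 listed repressors of the CLOCK and BMAL pair outside the PER and CRY families lay within 1.26-fold of equal levels. ciarta, the zebrafish gene related to the mammalian repressor CHRONO, had 1125 and 1808 reads, 71.2 and 81.5 CPM, a ratio of 0.874 (0.810 to 0.942). bhlhe40 (DEC1) had 2249 and 2812 reads, 142 and 127 CPM, and bhlhe41 (DEC2) had 244 and 271 reads, 15.4 and 12.2 CPM. Their ratios were 1.12 (1.06 to 1.19) and 1.26 (1.06 to 1.51), the only 2 of the 16 measured negative limb genes above 1. With total-count scaling the ratio of bhlhe40 was 0.918, so its direction is not firm, and that of bhlhe41 was 1.03.

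As a whole, the negative limb showed a shift of many genes by small factors. Of its 16 measured genes, 2 (per1a and cry5) were at least 2-fold lower and 0 higher, which is near the 11.1% of all measured genes that were 2-fold lower. Of the 15 at 5 CPM in both libraries, 1 (cry5) was at least 2-fold lower, where 5.98% of all such genes were. cry5 was counted in this limb as a cryptochrome by name, although its product is a photolyase rather than a clock repressor. A log2 ratio below 0 was found for 14 of the 16, and the same 14 lay below the median of all measured genes. Among them, per1b (-0.002) and cry1ba (-0.006) lay close to 0 and changed sign with another scaling (DESeq2 size factors). The median log2 ratio of the 16 was -0.42, against 0.04 over all measured genes. With total-count scaling 4 of the 16 were at least 2-fold lower, where 17.6% of all genes were. Summed over the 18 genes, the level was 1214 CPM in the nju18 and 1632 CPM in the TU library.

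**Figure D2:**
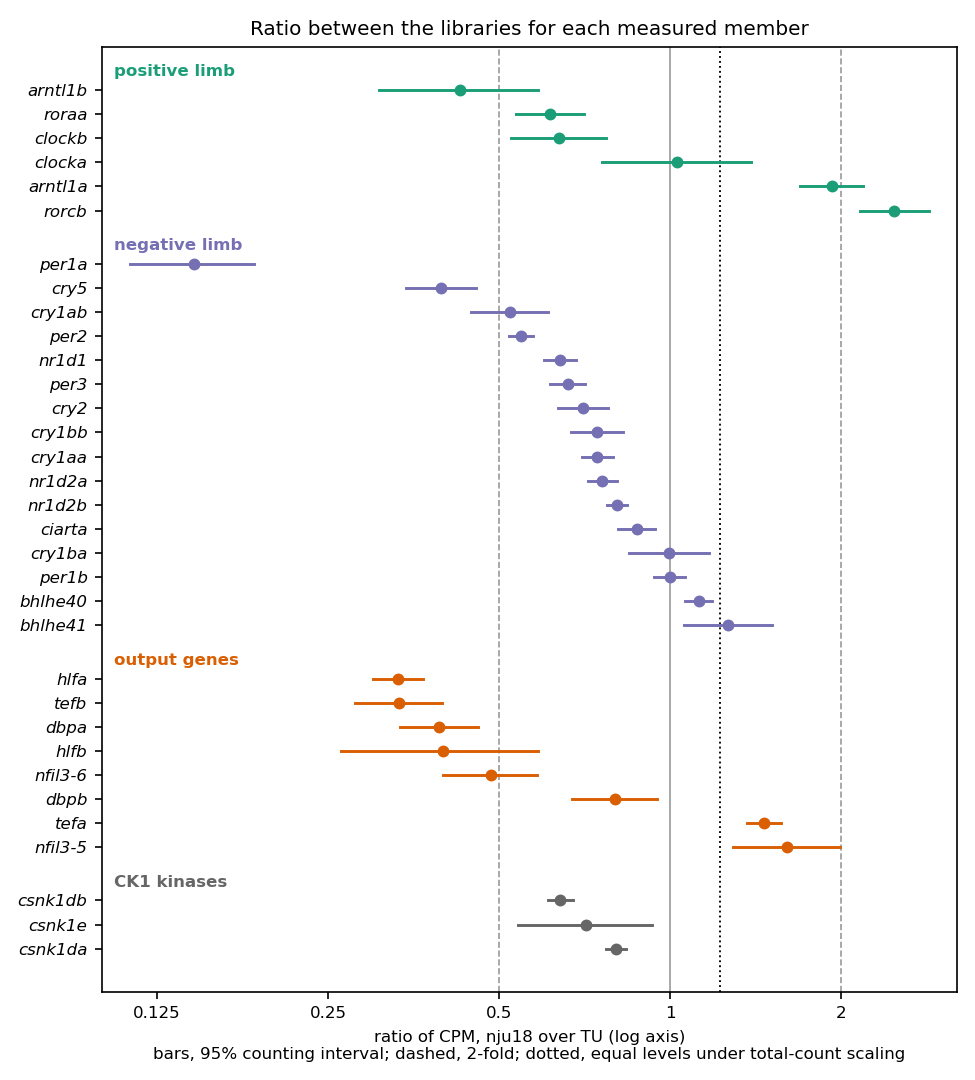
Ratio of CPM, nju18 over TU (log axis), for each measured gene by role, with 95% counting intervals as bars; dashed lines mark 2-fold and the dotted line marks where levels would be equal under total-count scaling. per1a has the lowest ratio (0.145) and rorcb the highest (2.48), and most negative limb genes lie between 0.5 and 1.

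Among the groups, the output genes held the highest share of genes past the 2-fold rule. The PAR bZIP factors activate their targets through D-box elements. Of their 6 genes, 4 were at least 2-fold lower in the nju18 library, where 11.1% of all measured genes were. Of the 5 at 5 CPM in both libraries, 3 were at least 2-fold lower, where 5.98% of all such genes were. hlfa (ENSDARG00000074752) had 479 and 2028 reads, 30.3 against 91.5 CPM, and was 3.02 times lower (2.73 to 3.34). tefb (ENSDARG00000098103) had 158 and 666 reads, 10.0 against 30.0 CPM, 3.0 times lower (2.52 to 3.59). dbpa (ENSDARG00000063014) had 206 and 737 reads, 13.0 against 33.2 CPM, 2.55 times lower (2.18 to 2.99). hlfa and tefb had lower ratios than every negative limb gene except per1a, and dbpa (0.392) was level with cry5 (0.396) within counting error. hlfb was low in both libraries, with 34 and 120 reads (2.15 and 5.41 CPM), 2.51 times lower (1.71 to 3.80). With 5 CPM added in place of 1, neither hlfb nor arntl1b passed the rule.

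The duplicates tefa and dbpb did not share this difference. tefa had 1649 and 1582 reads, 104 and 71.3 CPM, and so stood higher in the nju18 library, with a ratio of 1.46 (1.37 to 1.57). It was also the most abundant PAR bZIP gene of the nju18 library, so the family's summed level, 173 against 248 CPM, was 1.43 times lower although 4 genes were over 2-fold lower. dbpb had 212 and 372 reads, 13.4 and 16.8 CPM, a ratio of 0.80 (0.673 to 0.95).

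NFIL3 genes, whose mammalian counterpart represses at D-box elements, were split as well. nfil3-5 had 184 and 161 reads, 11.7 and 7.26 CPM, a ratio of 1.60 (1.29 to 2.0). nfil3-6 had 152 and 442 reads, 9.62 and 19.9 CPM, 2.07 times lower (1.72 to 2.51) and just short of the rule on the log2 scale (-0.98). nfil3 had 0 and 4 reads. Of the 8 measured output genes, 4 passed the rule in the lower direction and 0 in the higher, where 11.1% and 9.61% of all measured genes did, with a median log2 ratio of -1.0. Of the 7 that reached 5 CPM in both libraries, 3 were at least 2-fold lower, where 5.98% of all such genes were. Photoreceptor and pineal markers moved the same way, with a summed level 7.94 times lower in the nju18 library, and so did red cell (3.01 times) and neuronal markers (2.88 times). The part of these markers in the values was not tested.

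**Figure D3:**
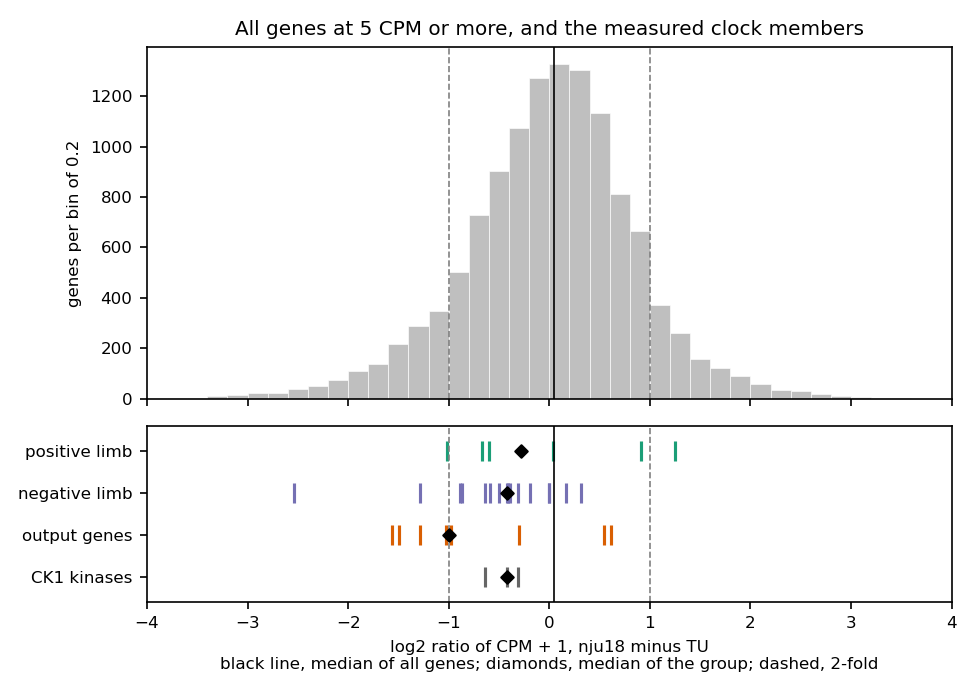
Upper panel, number of genes per bin of log2 ratio (CPM + 1, nju18 minus TU) over 12259 measured genes of any kind; lower panel, each measured clock gene as a tick and the median of its group as a diamond. The medians of the positive limb (-0.28), negative limb (-0.42), output genes (-1.0) and kinases (-0.43) lie left of the line at 0.04, the median of all genes.

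Casein kinase 1 genes, whose products phosphorylate PER proteins and time their breakdown, were all lower by less than 2-fold. csnk1da had 3640 and 6363 reads, 230.5 and 287 CPM, a ratio of 0.803 (0.771 to 0.837). csnk1db had 2171 and 4755 reads, 137 and 214 CPM, a ratio of 0.641 (0.609 to 0.675). csnk1e was far less abundant, at 5.32 and 7.49 CPM, with a ratio of 0.711 (0.540 to 0.929). Their median log2 ratio of -0.43 was close to that of the negative limb (-0.42).

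Levels per gene length, for which the deposited FPKM values were used, allow the genes to be ordered within each library. In both, csnk1da came first (57.1 FPKM nju18, 87.0 FPKM TU) and nr1d2b second (52.4 and 79.4 FPKM). per2 moved from rank 4 of 40 in the TU library (54.6 FPKM) to rank 10 in the nju18 one (24.4 FPKM). per1a moved from rank 24 (4.65 FPKM) to rank 34 (0.551 FPKM). In the opposite direction, arntl1a was at rank 20 (8.54 FPKM) in the TU and at rank 11 (13.4 FPKM) in the nju18 library, and tefa at ranks 11 (26.9 FPKM) and 5 (32.2 FPKM). With no replicates, it cannot be said which neighbours in this order differ beyond their spread.

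Because a ratio of genes within a library does not depend on the scaling, the division between related copies was compared directly. How reads that match both copies were counted was not stated, so the division itself is uncertain. Of 14 such pairs, 6 shifted by at least 2-fold between the libraries, and 4 had a counting interval that held 1. The share of other gene pairs that shift as much was not worked out. Of single measured genes of any kind, 11.1% were at least 2-fold lower and 9.61% higher, so pairs of unrelated genes shift too. A ratio within a pair carries the differences of both genes, so these shares of single genes are no benchmark for pairs. Whether clock pairs shift more often than other pairs was not tested. per1a made up 23.8% of the FPKM of the per1a and per1b pair in the TU library and 4.34% in the nju18 one, a change in their ratio of 6.89-fold (5.34 to 9.00). arntl1a took 78.5% of its pair with arntl1b in the TU and 94.3% in the nju18 library, a 4.51-fold change (3.19 to 6.43). tefa went from 62.0% to 87.8% of its pair with tefb, a 4.39-fold change (3.64 to 5.33). nfil3-5 went from 17.2% to 40.9% against nfil3-6, 3.32-fold (2.49 to 4.44). The dbpa share went from 77.4% to 62.7%, a 2.04-fold change (1.61 to 2.58) in its ratio to dbpb. nr1d4a and nr1d4b also shifted 2.41-fold, on few reads (1.15 to 5.14). In these pairs, per1b, tefb, nfil3-5, nr1d4a and nr1d4b overlap another gene in RefSeq, so reads of the neighbour may be included. The pairs nr1d2a and nr1d2b, roraa and rorab, hlfa and hlfb, and bhlhe40 and bhlhe41 were those whose interval held 1. That of roraa and rorab was wide, a 1.53-fold change (0.850 to 2.91) on 16 and 56 rorab reads.

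**Figure D4:**
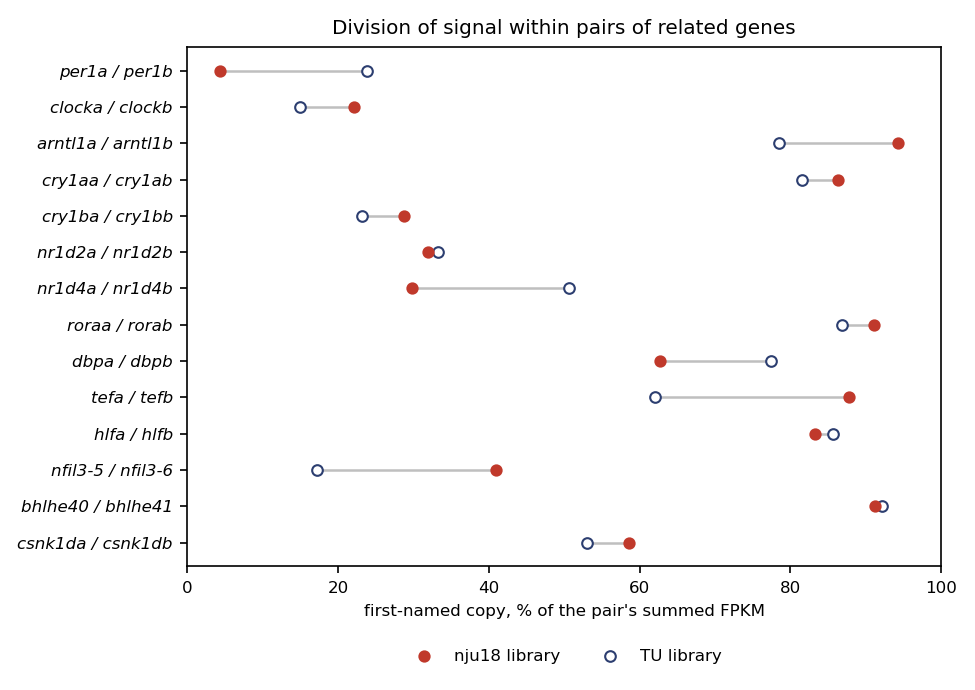
Share of the first-named copy in the summed FPKM of each pair of related clock genes (percent), in the nju18 (filled) and TU (open) library. The widest gaps, nju18 before TU, are those of tefa (87.8% and 62.0%), nfil3-5 (40.9% and 17.2%), nr1d4a (29.8% and 50.6%, on few reads) and per1a (4.34% and 23.8%).

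Ratios between arntl1a or rorcb and other clock genes are free of the scaling in the same way. The FPKM of arntl1a was 0.156 times that of per2 in the TU library and 0.551 times in the nju18 one, a 3.52-fold change (3.07 to 4.04). Relative to nr1d1, a repressor gene of its own transcription, arntl1a went from 0.161 to 0.483, a 3.01-fold change (2.60 to 3.47). Relative to nr1d2b, the NR1D gene with the highest level, the change was smaller, 2.38-fold (2.08 to 2.73). rorcb relative to nr1d1, an activator and a repressor of the same element, went from 0.0323 to 0.13, a 3.88-fold change (3.33 to 4.52). Relative to its partner gene clockb, arntl1a went from 1.82 to 5.50, a 3.02-fold change (2.39 to 3.82). clocka, with a ratio of 1.03 between the libraries where nr1d1 had 0.640, was not compared in this way. The activator genes clockb, roraa and arntl1b did not share the rise relative to nr1d1. The change was 0.995-fold (0.810 to 1.22) for clockb and 0.960-fold (0.825 to 1.12) for roraa, both with intervals that hold 1, and 0.667-fold (0.476 to 0.921) for arntl1b. These gene pairs were picked after the values had been seen and describe the libraries only.

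The authors' deposited table, which compares the same libraries, lists 37 of the 40 genes. It calls 3 of them down (per1a, hlfa and tefb) and 0 up, where 7.63% of all its genes are called down and 4.24% up. In the authors' deposited table per1a has a log2 fold change of -2.82 (FDR 2.08e-06), tefb -1.62 (FDR 0.0390) and hlfa -1.63 (FDR 0.0479). The same deposited table of the authors gives dbpa -1.38 (FDR 0.163), cry5 -1.37 (FDR 0.181), rorcb 1.28 (FDR 0.225) and arntl1a 0.91 (FDR 0.703), none of them called. With 1 library per genotype, these FDR values of the authors cannot measure variation between animals. All of the authors' calls in the deposited table have an absolute log2 fold change of at least 1.51.

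Further genes around the clock were taken from a list of modifiers, light-responsive genes and outputs, of which 40 genes other than the members were in the count table and 30 were measured. Of these 30, 3 were at least 2-fold lower and 2 higher, no larger shares than the 11.1% and 9.61% of all measured genes, and their median log2 ratio was -0.23. nampta, an enzyme gene of NAD synthesis, had 7.98 and 22.9 CPM and was 2.87 times lower. fbxl3b, related to the mammalian ubiquitin ligase subunit that marks CRY proteins for breakdown, had 9.05 and 20.1 CPM, 2.22 times lower. aanat1, an enzyme gene of the melatonin pathway, had 4.31 and 10.7 CPM, 2.49 times lower, and reached 5 CPM in the TU library alone. Its paralog aanat2 had 5.45 and 4.01 CPM, a ratio of 1.36 (0.997 to 1.85) whose interval holds 1. The 2 genes at least 2-fold higher were the DNA glycosylase gene neil1 (20.8 and 9.38 CPM) and lonrf1 (26.5 and 11.0 CPM). Among light-responsive DNA repair genes, cry-dash stood at 24.9 and 49.8 CPM, ddb2 at 6.84 and 12.5 CPM, and xpc at 29.2 and 21.0 CPM, so these genes did not share 1 direction. ciartb, the duplicate of ciarta, was added after its values were seen and had 9.81 and 21.5 CPM, 2.19 times lower.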

How the data were processed

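Hearts of 1 foxc1anju18 and 1 wild-type (TU) group were each sequenced as 1 library, and groups were taken from the genotype label. Per the submitters' processing notes, bcl2fastq, Trimmomatic, HISAT2 and featureCounts were used with GRCz11; the sources used here give no versions, roles or counting settings. The authors deposited raw counts per Ensembl gene. The deposited FPKM values imply the same gene length in both libraries for 100% of 21662 genes with reads in both (within 0.1%). In the authors' deposited comparison table, the normalised signal equals the count divided by a size factor (0.854 nju18, 1.17 TU). Its fold change, log2 fold change and FDR (a q-value) are the authors' own, per the file headers. The name of that table gives EBSeq as the tool, and how it was run on 1 library per genotype is not stated in the sources used here.

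Counts were scaled with TMM (edgeR 4.0.16, R 4.3.3; factors 0.904 and 1.11). Log2 ratios are nju18 minus TU of CPM + 1, which understates differences of low genes, and ratios in the text are of CPM as such. A 2-fold rule, with no test, was applied to genes that reached 5 CPM in at least 1 library. Intervals are Clopper-Pearson at 95% for ratios between libraries, and exact conditional odds ratios for ratios within pairs (scipy 1.17.1, Python 3.11.15). Use of molecular identifiers is not stated in the sources used here, so the intervals may be too narrow even for counting error. With 1 library per genotype they hold no variation between animals, so they are too narrow for statements on genotypes. The scripts were tested on simulated data.

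All 40 genes were named by role. Members and lists were chosen with earlier results of these data known. RefSeq (GRCz12tu assembly) was used for names and neighbours only. In it, 13 of the 40 genes overlap another gene, and without stated strand settings their reads may be shared. No promoter or protein sequences were used here, so the planned motif search was not run. Alternatives were size factors of DESeq2 1.42.0, scaling by total counts, another pseudocount (0.25 or 5 CPM), another filter (none or 20 CPM), a 1.5-fold rule and the deposited FPKM.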

Additional observations from a re-analysis of the deposited data

How the results depend on the processing

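With 1 library per genotype, no setting bears on variation between animals, and genes under 5 CPM rest on few reads. The output genes had 3 to 5 members at least 2-fold lower under each alternative that keeps the 2-fold rule, of 4 genes with the 20 CPM filter, 6 with FPKM, 9 with no filter and 8 otherwise. The 1.5-fold rule gave 5 lower and 1 higher. Of the alternatives, shares and medians over all genes were worked out for total-count scaling only. Counts and medians under the other settings therefore have no such value beside them. For the negative limb, total-count scaling gave 4 lower genes and a median log2 ratio of -0.70. With that scaling 17.6% of all genes were at least 2-fold lower, and the median of all genes was -0.26. The deposited FPKM gave a median of -0.70 for this limb, and the 1.5-fold rule 6 lower genes. The positive limb was the least firm. Its 1 lower gene was not called with 5 CPM added (0), with the 20 CPM filter (0) or with FPKM (0), and its 1 higher gene was not called with total-count scaling (0) or FPKM (0). Both reversals of a median were there, to 0.91 with the 20 CPM filter (3 genes) and 0.60 with FPKM (1 gene), where fewer genes were left. The 1.5-fold rule gave 3 lower and 2 higher. Chosen after seeing the data, the bHLH-PAS activators alone held 0 higher genes. Of 33 single ratios, 2 changed sign with total-count scaling (clocka and bhlhe40) and 2 with DESeq2 size factors (per1b and cry1ba), none of them 2-fold apart. Total-count scaling moved 27 of the 33 ratios beyond their counting intervals, so these intervals do not cover the choice of scaling. With DESeq2 size factors or the authors' normalised values, 0 of the 33 moved that far. No paired analysis was possible because each genotype has 1 library.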
